A study of Mus musculus with 6 samples.

Results

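The BAF complex is the mammalian SWI/SNF chromatin remodeller, and 10 genes that encode its subunits were chosen by name for description here: the ATPases *Smarca4* and *Smarca2*, the scaffold subunits *Smarcc1* and *Smarcc2*, the *Smarcd1*, *Smarcd2* and *Smarcd3* subunits, the DNA-binding subunits *Arid1a* and *Arid1b*, and the actin-related *Actl6a*. These are 10 of the 16279 genes listed in bulk RNA-seq of mouse embryonic stem cells (mESCs) and of cardiac precursor cell cultures (CPCCs). Both cell types were male F1 hybrids of C57BL/6 and CAST/EiJ, with a C57BL/6J mother and a CAST/EiJ father, and no engineered allele was named for either. The mESCs were single-cell clones from separate blastocysts, kept in LIF with kinase inhibitors. The CPCCs were made in vitro from those clones through hanging drops and embryoid bodies with ascorbic acid, then expanded with EGF and Fgf2 and taken at the fourth passage. They are mixed cultures rather than a sorted cell type, which limits them as a model of any 1 cardiac cell. Each cell type had 3 libraries, numbered S01 to S03 in mESCs and S04 to S06 in CPCCs. The comparison asked which subunits differed in transcript level between the stem cells and the cultures derived from them.

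A BAF complex carries 1 ATPase, which uses ATP to slide or evict nucleosomes, together with subunits that hold the complex together and steer it to chromatin. Several positions can be filled by either of a few paralogs, so that cells of different lineages assemble different complexes. The embryonic stem cell form is known for *Smarca4*, *Smarcc1*, *Smarcd1* and *Arid1a*, whereas *Smarcc2* and *Smarca2* are more typical of differentiated cells and *Smarcd3* is known as the subunit of heart and skeletal muscle. *Actl6a* belongs to the complexes of dividing stem and progenitor cells and is replaced by *Actl6b* in neurons.

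The deposited tables summed to 6442639 to 6907330 estimated counts per mESC library and to 8468819 to 11436062 per CPCC library. Levels below are CPM, counts scaled to a library of 1000000, with trimmed-mean (TMM) factors. Of the 13001 genes listed in both tables, 12471 passed the filter on low counts and were tested. Of 8 pluripotency markers, 8 were lower in CPCCs, with a summed level of 5250 to 5595 CPM in mESCs and 108 to 295 CPM in CPCCs (marker sums are per 1000000 counts of the whole table, without TMM factors). Cardiac markers were scarce: the 9 genes summed to 10.7 to 17.4 CPM in mESCs and to 146 CPM in S04, 46.8 CPM in S05 and 68.6 CPM in S06, *Tbx5* was not listed for CPCCs, *Nkx2-5*, *Mef2c*, *Hand2* and *Myh6* were not listed for mESCs, *Nkx2-5* had 0 counts in S05, and of 4 tested only *Tnnt2*, the cardiac troponin T gene, rose. Of 6 neural markers, 5 were tested and 5 were higher in CPCCs, and the listed genes of all 6 summed to 41.1 to 47.8 CPM in mESCs, where *Pax6* was not listed, and 506 to 584 CPM in CPCCs. Of 6 mesenchymal markers, 4 were tested and 4 were higher, and the listed genes of all 6 summed to 10.9 to 18.4 CPM in mESCs, where *Col3a1* and *Tagln* were not listed, and 9747 to 13840 CPM in CPCCs. In bulk libraries of mixed cultures, fewer cells of a type and less RNA per cell cannot be told apart.

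All 10 members were listed in both tables and passed the filter on low counts. Between CPCCs and mESCs, 4 members rose (*Smarcc2*, *Smarcd3*, *Smarca2* and *Arid1b*) and 5 fell (*Actl6a*, *Smarcd1*, *Smarcd2*, *Arid1a* and *Smarcc1*), while *Smarca4* did not pass the test. Differences were common in these data: beside 9 of the 10 members, 61.4% of all genes tested passed the same threshold, an adjusted p (Benjamini-Hochberg) under 0.05 from the quasi-likelihood test of edgeR, with 31.7% of all genes tested higher and 29.7% lower. The libraries of the cell types did not overlap for 9 of the 10 members, against 69.7% of all genes tested. The members' log2 fold changes ran from -1.38 to 2.06 with a median of -0.32 and a median size of 1.03, beside a median of 0.03 and a median size of 0.97 over all genes tested.

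**Figure D1:**
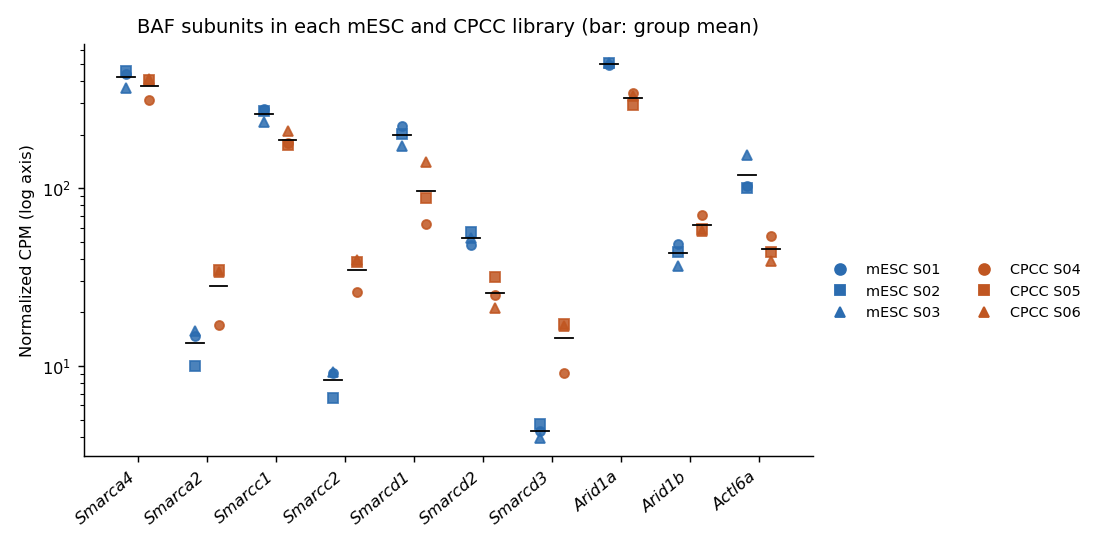
Normalized CPM (log axis) of the 10 BAF members in each of 3 mESC libraries (blue) and 3 CPCC libraries (orange), with a horizontal line at each mean. *Smarca4* is the only member whose groups overlap, and S04 lies below S05 and S06 for *Smarca4*, *Smarca2*, *Smarcc2*, *Smarcd1* and *Smarcd3*.

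*Smarca4*, which encodes the main ATPase of the stem cell complex (chr9:21616169-21704231, plus strand, mm10), had 439 CPM in S01, 454 CPM in S02 and 365 CPM in S03. Its CPCC libraries had 312 CPM in S04, 407 CPM in S05 and 413 CPM in S06, so that the groups overlapped. The log2 fold change was -0.15 (SE 0.17, 95% interval -0.54 to 0.23, adjusted p = 0.463), so a decrease of up to 0.54 on the log2 scale lay within the interval.

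*Smarca2*, the alternative ATPase (chr19:26605160-26778322, plus strand), had 14.8 CPM in S01, 10.002 CPM in S02 and 15.8 CPM in S03. In CPCCs it reached 16.9 CPM in S04, 34.4 CPM in S05 and 33.7 CPM in S06. Every CPCC library was above every mESC library, though S04 only narrowly, and *Smarca2* rose 2.09-fold (log2 fold change 1.06, SE 0.33, adjusted p = 0.0194). This call was lost without S02, S05 or S06 (adjusted p = 0.0714, 0.0732 and 0.0553). Per kilobase of exon, the scale on which genes of different length can be compared, *Smarca4* stood at 59.2 ± 8.89 CPM per kb in CPCCs and *Smarca2* at 3.94 ± 1.38 (SD, n = 3), so the stem cell ATPase remained the more abundant by far.

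The scaffold pair moved in opposite directions. *Smarcc1* (chr9:110132024-110240179, plus strand), the stem cell scaffold, had 280.1 CPM in S01, 272 CPM in S02 and 236 CPM in S03, against 179 CPM in S04, 174 CPM in S05 and 211 CPM in S06. No library of 1 group reached the other, and *Smarcc1* fell by 0.48 on the log2 scale (SE 0.16, adjusted p = 0.0246). That was the smallest decrease called among the members, and the call was lost without S01, S02 or S05 (adjusted p = 0.103, 0.0926 and 0.0956).

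*Smarcc2* (chr10:128459236-128490175, plus strand) had 9.11 CPM in S01, 6.62 CPM in S02 and 9.21 CPM in S03. Its CPCC values were 25.9 CPM in S04, 38.6 CPM in S05 and 39.4 CPM in S06, the lowest of them well above the highest mESC library. *Smarcc2* rose 4.16-fold (log2 fold change 2.06, SE 0.27, adjusted p = 0.000209), the largest rise among the members, and passed the test whichever single library was left out, with log2 fold changes from 1.92 to 2.24.

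The *Smarcd* subunits bridge the complex to transcription factors, and the pair that stood furthest apart in direction was *Smarcd1*, typical of stem cells, and *Smarcd3*, typical of muscle. The 250 bases before their RefSeq start sites (GRCm38.p6) are shown because the members moved in opposite directions while both windows are CpG-rich. The Smarcd1 window is chr15:99702037-99702286 on the plus strand and the Smarcd3 window is chr5:24602003-24602252 on the minus strand. Capitals mark CpG dinucleotides, and the sequences run 5′ to 3′.
Smarcd1: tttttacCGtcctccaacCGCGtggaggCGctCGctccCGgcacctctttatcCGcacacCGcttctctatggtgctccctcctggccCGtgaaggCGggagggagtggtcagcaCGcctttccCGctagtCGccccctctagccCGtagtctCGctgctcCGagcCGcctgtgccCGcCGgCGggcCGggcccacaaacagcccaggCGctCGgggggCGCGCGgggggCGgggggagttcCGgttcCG
Smarcd3: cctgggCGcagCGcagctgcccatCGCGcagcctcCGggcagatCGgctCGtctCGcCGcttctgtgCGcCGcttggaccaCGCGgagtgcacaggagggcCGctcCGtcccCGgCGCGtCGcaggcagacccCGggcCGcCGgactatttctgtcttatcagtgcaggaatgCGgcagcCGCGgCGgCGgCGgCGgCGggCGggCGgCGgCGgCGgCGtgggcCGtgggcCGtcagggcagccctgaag
The *Smarcd1* window held 29 CpGs and the *Smarcd3* window 38, against a median of 6 and an upper quartile of 16 over 32851 such RefSeq windows.

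RefSeq windows were found for all 10 members, with 2 alternative starts for *Arid1a*. Members that rose held 28 CpGs (*Smarca2*), 37 (*Arid1b*), 38 (*Smarcd3*) and 40 (*Smarcc2*). Members that fell held 4 (*Smarcd2*), 19 (*Actl6a*), 21 (*Smarcc1*), 29 (*Smarcd1*) and, for *Arid1a*, 18 or 33 by start. *Smarca4* held 25. The *Smarcd2* window is the exception in composition, and its RefSeq start lies inside the gene's span in the tables rather than at its end. The letters GGGCGG, which contain a CpG and were searched on both strands, were in a window of 9 of the 10 members (not *Smarcc2*) and in 32.7% of all windows. TATAAA was in that of *Smarcd2* alone and in 12.4% of all windows, and neither CCAAT (33.8% of all windows) nor CACGTG (6.02%) was in any member's window.

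*Smarcd1* (chr15:99702287-99713996, plus strand) had 223 CPM in S01, 203 CPM in S02 and 172 CPM in S03. It had 62.6 CPM in S04, 88.5 CPM in S05 and 139.6 CPM in S06, the widest spread of any member that fell. All CPCC libraries were nevertheless below all mESC libraries, and *Smarcd1* fell by 1.04 on the log2 scale (SE 0.28, adjusted p = 0.00965). Leaving out S04 gave -0.79 and leaving out S06 gave -1.39, both past the threshold.

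*Smarcd2* (chr11:106263171-106272973, minus strand), the paralog known from blood lineages, had 48.2 CPM in S01, 56.8 CPM in S02 and 52.5 CPM in S03. Its CPCC values of 25.0 CPM in S04, 31.5 CPM in S05 and 21.1 CPM in S06 did not reach them. The decrease of *Smarcd2* (log2 fold change -1.02, SE 0.21, adjusted p = 0.00256) was close in size to that of *Smarcd1*, and *Smarcd2* passed the test in each of the 6 fits that left out 1 library.

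*Smarcd3* (chr5:24592622-24602003, minus strand) had 4.33 CPM in S01, 4.71 CPM in S02 and 3.95 CPM in S03, the lowest CPM of any member. In CPCCs *Smarcd3* had 9.15 CPM in S04, 17.2 CPM in S05 and 16.8 CPM in S06, all above the mESC libraries. It rose 3.32-fold (log2 fold change 1.73, SE 0.36, adjusted p = 0.00257) and was called in every fit without 1 library, with log2 fold changes from 1.58 to 1.99. In the GENCODE M21 annotation, 642 exonic bases of *Smarcd3* (37.2%) also lie in exons of *Chpf2*, a chondroitin synthesis gene on the opposite strand, although the spans of the genes in the tables do not overlap. *Chpf2* had 3.40, 5.15 and 1.46 CPM in S01 to S03 and 40.7, 42.6 and 24.3 CPM in S04 to S06 (log2 fold change 3.42, adjusted p = 0.000171). The strand setting of the counting is not given in the sources used here, and the part of *Chpf2* reads in the *Smarcd3* values was not tested.

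*Arid1a* (chr4:133679008-133753612, minus strand) and *Arid1b* (chr17:4995074-5347657, plus strand) encode alternative large subunits that contact DNA. *Arid1a* was among the most even members, with 489.9 CPM in S01, 505 CPM in S02 and 507 CPM in S03, and 345 CPM in S04, 293 CPM in S05 and 329 CPM in S06. The groups were far apart beside their spread, and *Arid1a* fell 1.55-fold (log2 fold change -0.63, SE 0.14, adjusted p = 0.00397).

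*Arid1b* had 48.5 CPM in S01, 44.0 CPM in S02 and 36.3 CPM in S03, and 70.2 CPM in S04, 58.8 CPM in S05 and 57.3 CPM in S06. Every CPCC library lay above every mESC library, and *Arid1b* rose 1.45-fold (log2 fold change 0.53, SE 0.19, adjusted p = 0.0339). This was the smallest rise called and the least secure: the call was lost without S02, S03, S04 or S05 (adjusted p = 0.0832, 0.1004, 0.0529 and 0.0626), and when genes missing from 1 table were added at 3 counts per library (adjusted p = 0.0551).

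*Actl6a* (chr3:32708546-32726972, plus strand) had 102 CPM in S01, 100.02 CPM in S02 and 154 CPM in S03, against 53.7 CPM in S04, 43.8 CPM in S05 and 39.1 CPM in S06. Although S03 stood above the other mESC libraries, no library crossed between groups, and *Actl6a* fell 2.61-fold (log2 fold change -1.38, SE 0.23, adjusted p = 0.000728), the largest decrease among the members. Its neuronal counterpart *Actl6b* was listed in neither table. *Mrpl47*, a mitochondrial ribosomal protein gene on the opposite strand, shares 451 of the exonic bases of *Actl6a* (22.9%) and moved the same way, from 54.4, 51.3 and 50.8 CPM in S01 to S03 to 8.05, 9.58 and 15.6 CPM in S04 to S06 (log2 fold change -2.24, adjusted p = 0.00014). Its part in the *Actl6a* values was not tested. No run of 50 bases in a transcript of any member recurred in a transcript of another member, so reads of paralogs could be told apart at that length. Runs of members did recur in transcripts of genes outside the members. The share was 44.0% for *Smarcd3* (*Chpf2* among them), 10.1% for *Actl6a* (*Mrpl47* among them) and 7.87% for *Smarcd1* (*Gm17349* and *Gm34939*). For the other members it was at most 3.29% (*Smarcc1*).

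**Figure D2:**
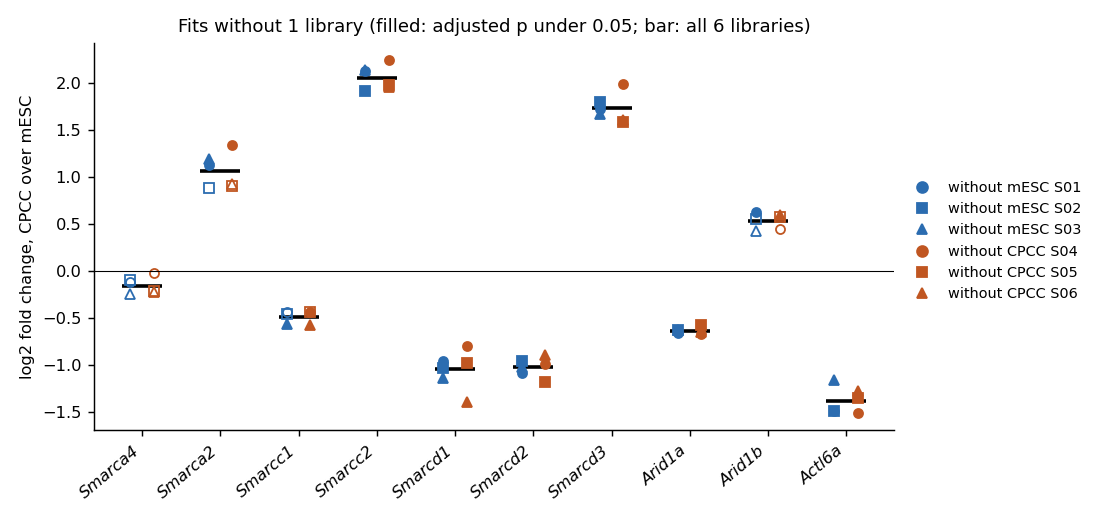
log2 fold changes (CPCC over mESC) of the 10 members with all 6 libraries and with each library left out in turn; filled and open symbols mark whether the adjusted p was under 0.05. *Smarcc2*, *Smarcd1*, *Smarcd2*, *Smarcd3*, *Arid1a* and *Actl6a* pass in all 6 such fits, whereas *Smarca2*, *Smarcc1* and *Arid1b* lose the call in some.

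S04 was the lowest CPCC library for 5 of the 10 members (*Smarca4*, *Smarca2*, *Smarcc2*, *Smarcd1* and *Smarcd3*) and the highest for 3 (*Arid1a*, *Arid1b* and *Actl6a*). Its levels were between 49.6% (*Smarca2*) and 129.6% (*Actl6a*) of the mean of S05 and S06. Being lowest or highest is common for 1 library of 3, and no such share was taken over all genes. For *Smarcd1*, S06 (139.6 CPM) lay further from S05 (88.5 CPM) than S04 (62.6 CPM) did. S04 also had the highest summed cardiac markers and the lowest summed pluripotency markers of the CPCC libraries, as given above, and the part of these in its BAF values was not tested. Without S04, 8 of the 10 members were called, and the log2 fold change of *Smarca2* was 1.34 (adjusted p = 0.000604), that of *Smarcd3* 1.99 (adjusted p = 0.000199) and that of *Smarca4* -0.02 (adjusted p = 0.917).

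On the per-length scale the members formed an ordered set in mESCs. *Smarca4* (65.7 ± 7.48 CPM per kb), *Smarcd1* (63.3 ± 8.21), *Arid1a* (61.1 ± 1.16) and *Actl6a* (60.2 ± 15.4) stood at the top and did not differ beyond their spread, followed by *Smarcc1* (40.8 ± 3.68) and *Smarcd2* (17.3 ± 1.42; all SD, n = 3). The remaining 4 were low, from *Arid1b* at 3.79 ± 0.546 CPM per kb and *Smarcd3* at 2.51 ± 0.220 to *Smarca2* at 1.88 ± 0.432 and *Smarcc2* at 1.66 ± 0.293, the last pair being within their spread.

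In CPCCs *Smarca4* was highest at 59.2 ± 8.89 CPM per kb. By the means *Arid1a* followed at 39.4 ± 3.25 CPM per kb, then *Smarcd1* at 30.8 ± 12.4, *Smarcc1* at 29.1 ± 3.11 and *Actl6a* at 23.1 ± 3.78. The levels of *Smarcd1* and *Smarcc1* lay within their spread. *Smarcd1* also stood above *Arid1a* in S06 and below *Actl6a* in S04. *Smarcd2* (8.55 ± 1.74), *Smarcd3* (8.35 ± 2.64) and *Smarcc2* (6.91 ± 1.505) were not separated beyond their spread. *Smarca2* (3.94 ± 1.38) was lowest in every CPCC library. *Arid1b* (5.48 ± 0.622) was next by its mean only, since in S04 *Arid1b* stood above *Smarcc2* and *Smarcd3*. The 4 members that were lowest in mESCs are the 4 that rose.

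Ratios of paralogs within a library do not depend on how libraries are scaled, so 8 pairs were compared that way, 6 of them among the members. All 8 ratios were higher in CPCCs by their means, and 6 had no overlap between the cell types. Single genes had no overlap in 69.7% of all genes tested, and no such share was taken over other pairs of genes. The *Smarcd* pairs share genes and are not independent, and the members were chosen with earlier results of these data known. With 3 libraries against 3, the two-sided exact permutation test cannot go below p = 0.10, and those 6 pairs reached it (Benjamini-Hochberg adjusted p = 0.133 over the 8 pairs in the exact test), so none passes 0.05 in this design.

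The log2 ratio of *Smarcc2* to *Smarcc1* was -4.93 in S01, -5.35 in S02 and -4.67 in S03, and -2.78 in S04, -2.17 in S05 and -2.42 in S06. The ratio was thus 5.75-fold higher in CPCCs, with groups far apart beside their SDs of 0.34 and 0.31. The log2 ratio of *Smarcd3* to *Smarcd1* was -5.67 in S01, -5.41 in S02 and -5.42 in S03, and -2.77 in S04, -2.36 in S05 and -3.05 in S06. That ratio was 6.83-fold higher in CPCCs, the largest shift of the 8 pairs by the means. Although S04 had the least of each of these *Smarcd* transcripts among the CPCC libraries, its ratio lay between those of S05 and S06. With 1 library left out, the log2 shift ran from 2.59 to 2.93. For *Smarcd3* to *Smarcd2* it ran from 2.42 to 2.98, so the order of these pairs was not secure. The exon overlap of *Smarcd3* with *Chpf2* given above also limits the ratios and shares of *Smarcd3*.

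In the ATPase and *Arid1* classes the shifts were smaller by their means. The ratio of *Smarca2* to *Smarca4* was 2.26-fold higher in CPCCs (log2 means -4.97 ± 0.49 and -3.79 ± 0.36, SD, n = 3), and that of *Arid1b* to *Arid1a* was 2.26-fold higher (-3.55 ± 0.24 and -2.38 ± 0.13), neither with overlap. Within the *Smarcd* class, the ratio of *Smarcd3* to *Smarcd2* was also much higher in CPCCs, 6.49-fold (-3.58 ± 0.13 and -0.88 ± 0.56). *Smarcd2* and *Smarcd1* fell together, and their log2 ratio was -1.92 ± 0.26 in mESCs and -1.84 ± 0.77 in CPCCs with overlapping libraries (exact permutation p = 0.90).

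**Figure D3:**
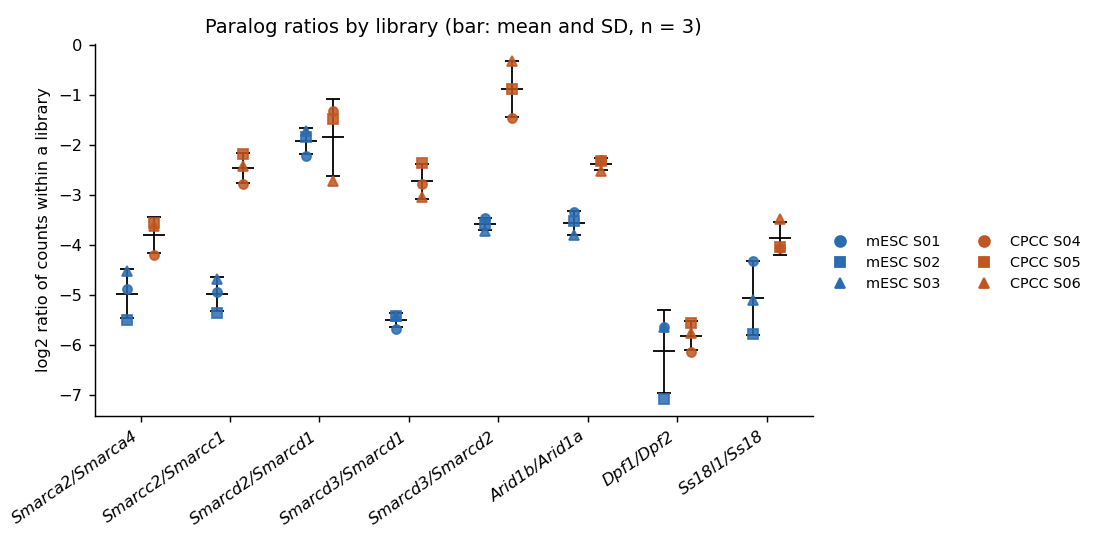
log2 ratio of the counts of paralogs within each library (y axis) for 8 pairs, mESC libraries in blue and CPCC libraries in orange, with mean and SD (n = 3). The *Smarcc2*/*Smarcc1*, *Smarcd3*/*Smarcd1* and *Smarcd3*/*Smarcd2* ratios differ most, and the *Smarcd2*/*Smarcd1* and *Dpf1*/*Dpf2* ratios overlap.

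As shares of each class per exonic length, *Smarcc2* made up 4.01%, 3.03% and 4.78% of the *Smarcc* transcripts in S01 to S03 and 15.7%, 22.2% and 19.4% in S04 to S06. *Smarcd3* made up 2.80%, 3.18% and 3.08% of the *Smarcd* transcripts in S01 to S03 and 15.8%, 20.6% and 16.0% in S04 to S06. These are the classes in which the minor paralog gained most, yet *Smarcc1* and *Smarcd1* remained the majority in every CPCC library. *Smarca2* went from 2.84% ± 0.89 to 6.10% ± 1.32 of the ATPase transcripts and *Arid1b* from 5.84% ± 0.89 to 12.2% ± 0.92 of the *Arid1* transcripts (SD, n = 3).

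The class sums differed in their own way. The *Smarcd* sum was 83.1 ± 7.90 CPM per kb in mESCs and 47.7 ± 13.8 in CPCCs, and the *Arid1* sum was 64.9 ± 0.75 and 44.9 ± 3.69, without overlap in either class. The ATPase sum (67.6 ± 7.16 and 63.1 ± 10.3 CPM per kb) and the *Smarcc* sum (42.4 ± 3.58 and 36.1 ± 4.01) overlapped between the cell types. On this per-length scale the paralog that rose gained less, by the means, than the main paralog lost in each class. The decrease of *Smarca4* did not pass the test.

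**Figure D4:**
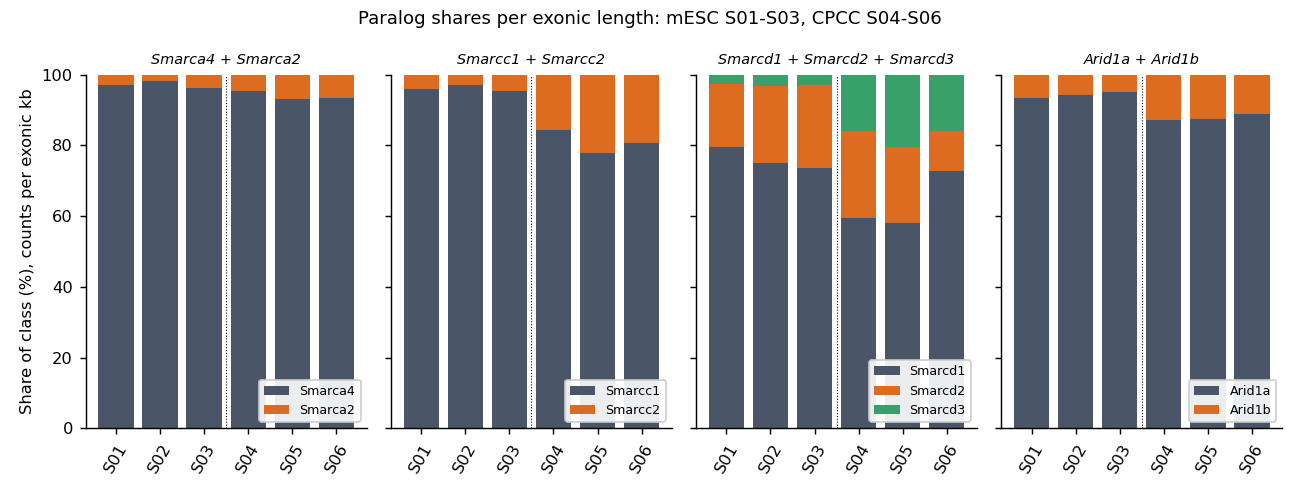
Share (%) of each class's counts per exonic kb taken by each paralog, in mESC libraries S01 to S03 and CPCC libraries S04 to S06. *Smarca4*, *Smarcc1*, *Smarcd1* and *Arid1a* keep the largest share in all 6 libraries, and *Smarcc2* and *Smarcd3* reach 15.7% to 22.2% of their classes in CPCCs.

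Values were also taken for the remaining subunits of the BAF, PBAF and non-canonical BAF forms. Of these 21 genes, 18 were tested, 5 rose, 2 fell and 11 did not pass, so 38.9% were called beside 61.4% of all genes, and their median log2 fold change was 0.00. *Actl6b* and *Dpf3* were in neither table.

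Among the core subunits shared by most BAF forms, *Smarce1*, an HMG-box subunit, rose from 48.5 ± 4.89 to 96.9 ± 5.31 CPM (log2 fold change 1.00, SE 0.17, adjusted p = 0.000796), although 15.01% of its 50-base runs recur in other transcripts, among them *Smarce1-ps1*, which makes this value less certain. *Actb*, whose actin is a BAF subunit and mostly a part of the cytoskeleton, rose from 955 ± 18.4 to 5415 ± 674 CPM (log2 fold change 2.503, adjusted p = 3.13e-06), and 9.12% of its 50-base runs recur in other transcripts, *Actg1* among them. *Smarcb1*, the core subunit lost in rhabdoid tumours, had a log2 fold change of -0.41 (adjusted p = 0.172). *Bcl7c* rose from 13.7 ± 0.525 to 27.2 ± 6.31 CPM (log2 fold change 0.99, SE 0.25, adjusted p = 0.00775), whereas *Bcl7a* (0.27, adjusted p = 0.493) and *Bcl7b* (-0.11, adjusted p = 0.717) did not pass.

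Subunits that define the PBAF form did not pass the test: *Arid2* (-0.03, adjusted p = 0.908), *Pbrm1* (0.29, adjusted p = 0.299), *Brd7* (-0.32, adjusted p = 0.341) and *Phf10* (0.04, adjusted p = 0.928), as log2 fold changes. In the non-canonical form the alternative subunits went opposite ways, *Bicra* rising from 6.41 ± 0.609 to 19.1 ± 5.64 CPM (log2 fold change 1.57, SE 0.31, adjusted p = 0.00222) and *Bicral* falling from 45.1 ± 4.22 to 15.9 ± 3.13 CPM (log2 fold change -1.501, SE 0.23, adjusted p = 0.000438). Of the 50-base runs of *Bicral*, 10.6% recur in transcripts of the overlapping *Gm26904*. Their partner *Brd9*, a bromodomain protein, had a log2 fold change of -0.51 (adjusted p = 0.079).

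Of the subunits tied to neural and stem cell forms, *Dpf2*, the stem cell PHD-finger subunit, fell from 180.0 ± 8.44 to 112 ± 16.6 CPM (log2 fold change -0.68, SE 0.17, adjusted p = 0.00665), and its neuronal paralog *Dpf1* had a log2 fold change of -0.46 (adjusted p = 0.517) at a mean of 2.00 CPM in CPCCs. *Ss18*, the subunit fused in synovial sarcoma, had a log2 fold change of -0.12 (adjusted p = 0.527). Its neuronal paralog *Ss18l1* had 7.88, 3.09 and 5.12 CPM in S01 to S03 and 10.3, 9.34 and 12.5 CPM in S04 to S06 without overlap (log2 fold change 1.00, SE 0.40), and lay close to the threshold. It missed it in the edgeR fit used throughout (adjusted p = 0.0532) and passed in edgeR without a filter on low counts (adjusted p = 0.0497), with at least 10 counts in every library (adjusted p = 0.0292) and without S01 (adjusted p = 0.0272), and in DESeq2 (adjusted p = 0.0365).

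The zinc-finger subunits *Bcl11a* and *Bcl11b*, known from neurons and lymphocytes, were at few or no counts in mESCs. *Bcl11b* rose from 0.646 ± 0.0791 CPM, which rests on 4 to 5 counts per mESC library, to 5.87 ± 1.16 CPM (log2 fold change 3.15, SE 0.52, adjusted p = 0.000749). *Bcl11a* was listed for CPCCs only, at 14.5, 42.1 and 36.1 CPM in S04 to S06. Their mean of 30.9 CPM was 69.0-fold that of a level of 3 counts per mESC library, with S04 well below that mean. The summed neural markers given above were higher in the same CPCC libraries, and their part in these values was not tested.

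**Figure D5:**
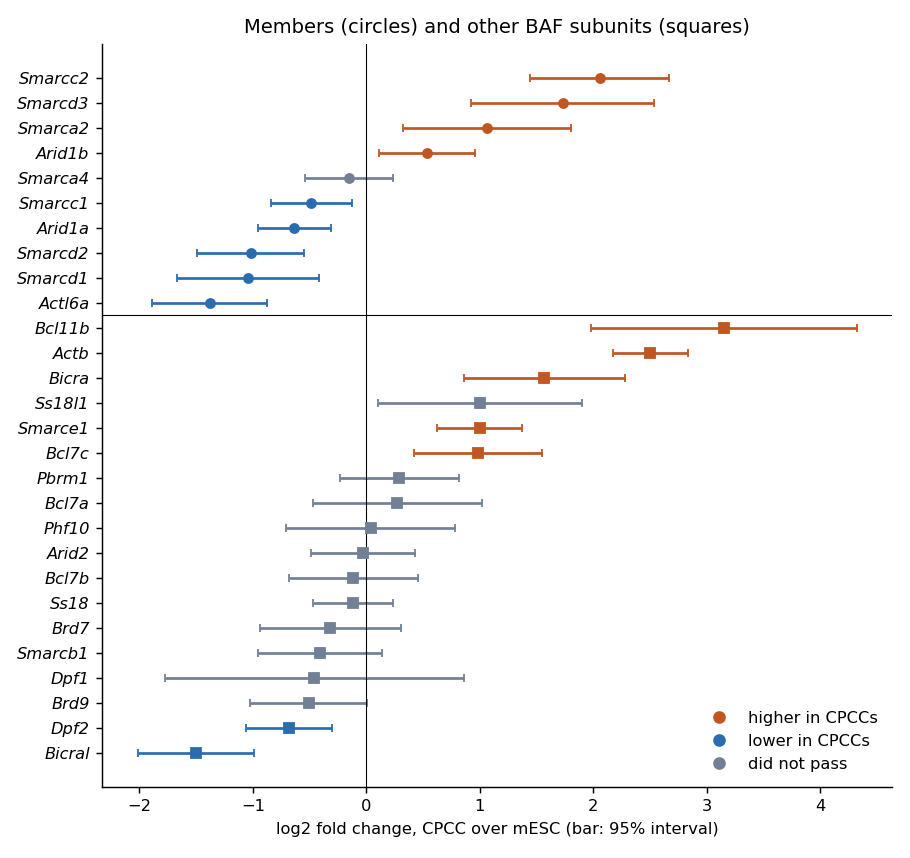
log2 fold change (CPCC over mESC) with its 95% interval for the 10 members (circles) and the 18 other BAF subunits tested (squares), coloured by whether they passed as higher, passed as lower or did not pass. Members run from -1.38 (*Actl6a*) to 2.06 (*Smarcc2*), and *Bcl11b* and *Actb* lie above all of them.

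ATPases of other remodelling families (ISWI, CHD, INO80 and related) give a further frame. Of 20 genes, 19 were tested, 3 rose, 6 fell and 10 did not pass, a share of 47.4% called and a median log2 fold change of -0.20. The rises were *Smarca1*, an ISWI ATPase (log2 fold change 2.54, adjusted p = 0.00856), *Chd9* (1.71, adjusted p = 0.000288) and *Chd3*, an ATPase of the NuRD complex (1.54, adjusted p = 0.000479). *Smarca1* rested on 2, 15 and 8 counts in S01 to S03, and its log2 fold change was 3.26 without S02 and 2.09 without S01, both past the threshold. The largest decreases were in *Hells*, which acts in DNA methylation (-2.74, adjusted p = 0.000272), *Atrx*, which deposits the histone variant H3.3 with Daxx (-1.03, adjusted p = 0.000216), and *Smarca5*, the other ISWI ATPase (-0.90, adjusted p = 0.0202, and 0.0779 without S03 or 0.0783 without S05). The ISWI pair *Smarca1* and *Smarca5* thus moved in opposite directions, as the *Smarcc* pair did, while *Smarca4* did not pass the test.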

How the data were processed

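RNA from 3 mESC and 3 CPCC libraries (polyA SMART-Seq v4 cDNA) was sequenced, and the submitters' processing notes name STAR 2.7 and mm10. The authors deposited 1 table of estimated counts per cell type, not normalized, with genes under 10 counts over its 3 libraries left out. The counter and its strand setting are not given in the sources used here. Of the estimated counts, 17.9% to 21.5% per library were not whole and were rounded. Columns were assigned to cell types by the table's name, and 0 columns were left unused.

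The tables were joined on 13001 shared genes. edgeR 4.0.16 (R 4.3.3) filterByExpr removed 530, TMM factors were computed and CPCCs were compared with mESCs by the quasi-likelihood test, with Benjamini-Hochberg adjustment over 12471 genes and a threshold of 0.05. DESeq2 1.42.0 was an alternative. Since each table was filtered on its own cell type, a gene missing from 1 table was not tested. Replicates are clones from separate blastocysts. Lengths are unions of GENCODE M21 exons within each gene's span in the tables. Paralog ratios used counts plus 0.5, compared by two-sided exact permutation. The scripts were tested on simulated data.

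The members and lists were chosen with earlier results of these data known. Values were named for all members, all other BAF subunits, and the 3 largest rises and 3 largest falls called among other ATPases, and *Chpf2* and *Mrpl47* were added after their exon overlap was seen. Promoter windows are from RefSeq (GRCm38.p6).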

Additional observations from a re-analysis of the deposited data

How the results depend on the processing

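No paired analysis was possible because the columns carry none of the labels' replicate numbers. Over the single-gene values of the members, 119 alternatives kept direction and side of the threshold, 11 lost the call and none turned the direction. Of the 10 members, 9 were called in DESeq2, under upper-quartile or no composition scaling, under both low-count filters, and with genes missing from 1 table set to 0 counts, 8 were called with them at 3 counts, and 6 to 8 when 1 library was left out. The number of members that rose ran from 2 (without S02 or S05) to 4, and the number that fell from 4 to 5. With 1 library left out, its cell type was assumed to vary like the other.

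Directions turned only in values that were not called. The log2 ratio of *Smarcd2* to *Smarcd1* changed by -0.19 to 0.51 and that of *Dpf1* to *Dpf2* by -0.17 to 0.55 when 1 library was left out. The log2 fold change of *Arid2* was 0.043 with at least 10 counts in every library and ran from -0.14 to 0.18 without 1 library, and that of *Phf10* was -0.035 with missing genes at 3 counts and ran from -0.21 to 0.26 without 1 library. *Brd9* passed with missing genes at 3 counts (adjusted p = 0.0492) and without S06 (adjusted p = 0.0450), and *Ss18l1* without a low-count filter, with at least 10 counts in every library, without S01 and in DESeq2. *Smarca1*, *Bcl11b* and *Dpf1* could not be fitted with at least 10 counts in every library. The causes were not tested. With 3 libraries per cell type the exact test cannot pass 0.05, and counts of 4 to 5 limit *Bcl11b* in mESCs.

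Setting genes missing from 1 table to 0 counts moved the median log2 fold change of all genes to 0.17. Shares per length under the longest transcript, a choice made after seeing the data, moved by less than 1 SD.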
